A study of Mus musculus with 6 samples.

Results

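The genes of cholesterol synthesis and sterol transport were examined in adipose tissue of mice lacking the neurotensin receptor NTSR2 in adipocytes. The set was given as a list of 30 symbols: 19 enzymes of the synthesis pathway, 4 genes of the SREBP control system and 7 genes of sterol transport and storage. All 30 were found among the 21456 genes of the table, 29 by their own symbol and Msmo1 by its older symbol, Sc4mol. RNA came from adipose tissue of 6 mice on a chow diet, and the paper describes the tissue as white. The 3 controls had the genotype Ntsr2 flox/flox and the 3 knockouts, called Ntsr2 AKO, the genotype Adipoq-cre::Ntsr2 flox/flox, so the floxed alleles were common to both and the Cre transgene was not. The Adipoq promoter drives Cre in white and brown adipocytes, while the RNA was taken from whole tissue with its vessels, immune cells and progenitors. Which white fat depot was used, and the age and sex of these mice, were not given in the sources used here.

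Cholesterol is built from acetyl-CoA. The mevalonate branch makes farnesyl pyrophosphate, which squalene synthase joins into squalene, and a long series of enzymes then oxidises, cyclises and trims it into cholesterol. When sterols in the endoplasmic reticulum are low, SCAP carries the precursor of SREBP2 (encoded by Srebf2) to the Golgi for cleavage, and the freed factor activates the synthesis genes, whereas INSIG proteins hold SCAP back when sterols are plentiful. White adipocytes make little of their own cholesterol and store a large pool of it, much of it unesterified at the surface of the lipid droplet, which they exchange with lipoproteins through transporters such as ABCA1 and SR-BI.

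No member passed the adjusted threshold of 0.05, either in limma or in edgeR and DESeq2 run on recovered reads. The members leaned to lower levels in Ntsr2 AKO mice: 24 of 30 had a negative log2 fold change, with a median of -0.22, against 51.0% of all 16157 genes tested and a median of -0.01. The lowest fold changes were those of 3 enzymes between squalene and cholesterol, Hsd17b7 at -1.22, Sqle at -1.05 and Cyp51 at -0.89, and of the exporter Abcg1 at -0.96, while the cholesterol exporter Abca1 was the member with the largest positive value, 0.33. All fold changes are on the log2(normalized count + 1) scale, Ntsr2 AKO minus control.

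At an unadjusted p under 0.05, limma held 6 members that were lower (20% of 30; 5.27% of all genes tested were lower at this p) and 1 that was higher (3.33%; 3.08% of all genes). The lower members were Hsd17b7, Sqle, Cyp51, Msmo1, Srebf2 and Abcg1, and the higher one was Abca1. edgeR's quasi-likelihood test held 5 lower and 1 higher member at this p, where 4.9% of all genes were lower and 3.29% higher. DESeq2 held 7 and 1, and it also placed more genes there, 6.39% lower and 4.01% higher. Across all genes, the limma adjusted threshold was passed by 1 gene (0.00619%) and the DESeq2 one by 220 of 14652 genes with an adjusted p (1.5%).

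The sequencing and the samples set the limits of these values. Normalized counts, which are reads divided by a size factor per mouse, rested on 60405373 to 66098226 reads in control mice and 54085088 to 56268725 in Ntsr2 AKO mice. The targeted gene Ntsr2 had 83.8, 64.0 and 152.5 normalized counts in the controls against 3.10, 8.29 and 0 in the knockouts, a difference of -4.81 ± 0.91 on the log2 scale (SE, n = 3 per group; limma adjusted p = 0.499; DESeq2 adjusted p = 1.1e-04). The 10 adipocyte markers together summed to between 2384630 and 3457220 normalized counts in control and between 2738580 and 2980830 in Ntsr2 AKO mice, and none was at 0 in all mice. Brown and beige markers summed to 2633 to 5796 in controls against 5291 to 7489 in knockouts, mostly through Cidea (means of 3215 and 5349). Of the 5 brown and beige markers tested, 2 were lower and 3 higher. Mammary epithelium markers summed to 212.6, 7.22 and 11.5 in controls 3, 4 and 5 against 0 to 5.18 in knockouts, so the high value was that of control 3 alone. The liver list summed to 99634 to 175907 in controls against 177308 to 236892 in knockouts, with no overlap. It was almost wholly Cyp2e1, which adipocytes express as well and which was higher by 0.62 ± 0.27 (limma adjusted p = 0.600). Alb overlapped between the genotypes, with means of 1651 and 1783. The lymphocyte, endothelium, progenitor and mesothelium sums overlapped between the genotypes. Control 3 stood apart in lymphocyte markers too, at 1503 against 564 and 305 in controls 4 and 5 and 416 to 606 in Ntsr2 AKO mice. Skeletal muscle transcripts separated mice within both groups: the 12 muscle markers summed to 1029, 533 and 3077590 in controls 3, 4 and 5 and to 1575, 100045 and 220094 in Ntsr2 AKO mice 3, 4 and 5. The 10 macrophage markers summed to 36746, 105627 and 65887 in the controls and 53561, 39568 and 86596 in the Ntsr2 AKO mice, with 9 of 10 lower, none at an unadjusted p under 0.05 and none at 0 in all mice. In bulk tissue, fewer cells of a type and less RNA per cell cannot be told apart. The mice were separate animals in each group, 3 per genotype, and p-values weigh the difference between genotypes against the spread between mice.

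The start sites of the members that lay at an unadjusted p under 0.05 were read for the letters that SREBP and its partner factor NF-Y bind, since SREBP2 acts on sterol genes through a sterol regulatory element that often lies near a CCAAT box. Of the 7 such members, 5 had a promoter entry in RefSeq (GRCm38.p6), and Sqle and Abcg1 had none. The 250 bases before the RefSeq start site are shown 5′ to 3′ on the gene's strand, and capitals mark TCACNCCA, the first 8 letters of the sterol regulatory element, and CCAAT or its reverse complement ATTGG. The windows lie at chr1:169969206-169969455 (minus strand) for Hsd17b7, chr5:4104698-4104947 (minus) for Cyp51, chr8:64733579-64733828 (minus) for Msmo1, chr15:82147019-82147268 (plus) for Srebf2 and chr4:53159896-53160145 (minus) for Abca1.
Hsd17b7: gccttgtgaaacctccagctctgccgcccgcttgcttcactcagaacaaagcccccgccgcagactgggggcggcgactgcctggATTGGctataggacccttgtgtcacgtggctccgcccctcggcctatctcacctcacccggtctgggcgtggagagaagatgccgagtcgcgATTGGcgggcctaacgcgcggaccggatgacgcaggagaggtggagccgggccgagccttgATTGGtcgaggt
Cyp51: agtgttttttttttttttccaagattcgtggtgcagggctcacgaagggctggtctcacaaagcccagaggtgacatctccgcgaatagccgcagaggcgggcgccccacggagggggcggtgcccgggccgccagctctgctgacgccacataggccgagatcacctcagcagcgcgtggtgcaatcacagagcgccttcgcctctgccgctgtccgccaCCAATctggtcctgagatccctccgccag
Msmo1: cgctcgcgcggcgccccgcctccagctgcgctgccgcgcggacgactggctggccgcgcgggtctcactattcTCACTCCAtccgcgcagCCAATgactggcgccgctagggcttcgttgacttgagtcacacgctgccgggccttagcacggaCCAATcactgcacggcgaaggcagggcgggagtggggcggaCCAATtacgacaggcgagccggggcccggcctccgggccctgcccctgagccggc
Srebf2: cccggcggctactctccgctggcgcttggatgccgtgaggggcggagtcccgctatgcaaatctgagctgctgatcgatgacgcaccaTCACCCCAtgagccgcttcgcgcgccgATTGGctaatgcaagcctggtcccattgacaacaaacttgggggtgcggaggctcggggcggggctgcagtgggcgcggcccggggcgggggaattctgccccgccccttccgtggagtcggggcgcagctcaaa
Abca1: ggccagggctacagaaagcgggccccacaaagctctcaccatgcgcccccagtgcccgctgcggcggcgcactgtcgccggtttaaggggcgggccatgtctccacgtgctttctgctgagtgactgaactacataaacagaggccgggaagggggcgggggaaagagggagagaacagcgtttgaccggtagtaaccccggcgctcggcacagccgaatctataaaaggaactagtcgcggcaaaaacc

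The Msmo1 window held TCACTCCA 177 bases and the Srebf2 window TCACCCCA 162 bases before the RefSeq start site. Each had a CCAAT box a short way downstream (at 160, 96 and 55 bases in Msmo1 and at 135 in Srebf2). Hsd17b7 held a run of CCAAT boxes, at 165, 73 and 12 bases, and Cyp51 held 1 at 29 bases, with no TCACNCCA in either window. Sterol elements that depart from this pattern were not searched for. The Abca1 window, the one of a gene that was higher, held neither set of letters. Over both strands, CCAAT was in 20 of the 29 promoter windows of members (69.0%; 23 genes had an entry) and in 33.8% of all 32851 windows of this length. TCACNCCA was in 3 of the 29 windows, those of Hmgcs1, Msmo1 and Srebf2 (10.3%), and in 3.67% of all windows. The full 9 letters TCACNCCAC, which contain the 8, were in the Hmgcs1 window alone among members, and in 1.05% of all windows. A match is a description of the letters only. RefSeq start sites and the GENCODE gene spans given below differ for some genes. The windows of Hsd17b7, Cyp51, Msmo1 and Srebf2 lie partly within those spans. All marked letters of Msmo1, the CCAAT box of Cyp51 and the Hsd17b7 box at 12 bases fall inside them.

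The plot of each member in each mouse gives the spread behind these counts.

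**Figure D1:**
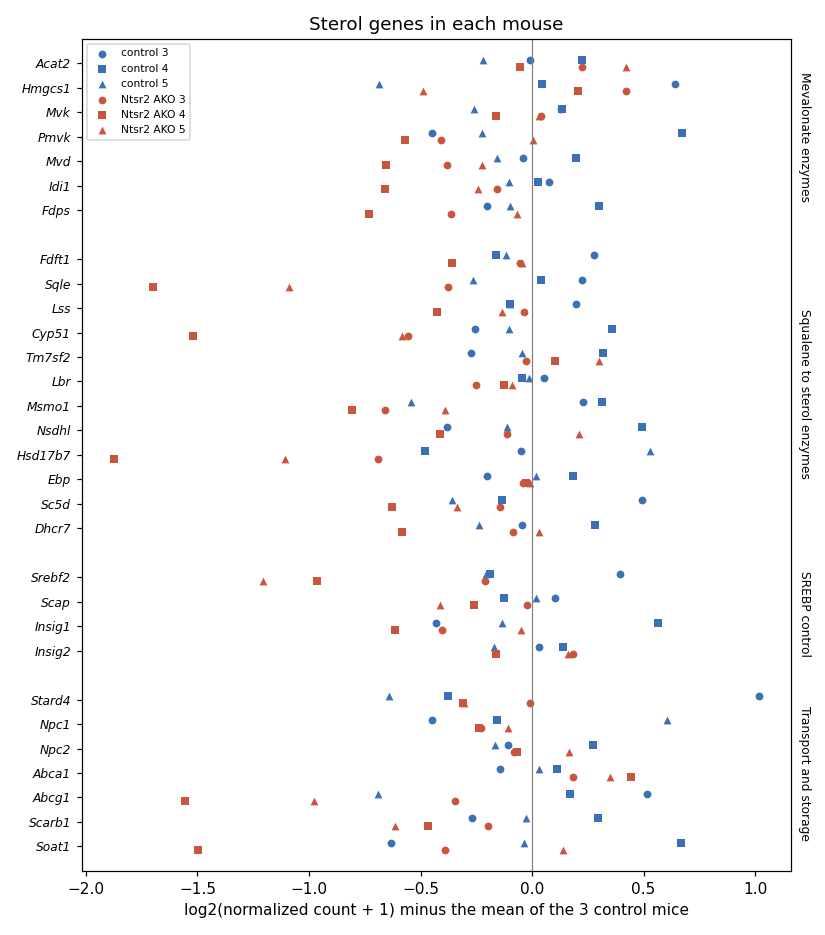
Each point is the log2(normalized count + 1) of a gene in 1 mouse minus the mean of the 3 control mice (x axis), with genes in rows by role, controls in blue and Ntsr2 AKO mice in red. The red squares, Ntsr2 AKO mouse 4, were the lowest point in 16 of the 30 rows, and the largest mean differences were those of Hsd17b7, Sqle, Abcg1 and Cyp51.

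The members were not equally low in all Ntsr2 AKO mice. Mouse 4 of this group had the lowest value of the 6 mice in 16 of 30 members and in 13 of the 19 synthesis enzymes, and the median enzyme lay 0.41 log2 units below its mean over the 6 mice there. Ntsr2 AKO mice 3 and 5 had medians of -0.03 and -0.01, next to the -0.04 of control 5, but single enzymes lay apart in both directions: control 5 had more Hsd17b7 and less Hmgcs1 than either of these knockouts. Controls 3 and 4 stood above, with medians of 0.17 and 0.20, and held the highest value in 7 and in 10 of the 19 enzymes. In macrophage markers, control 4 was also the highest of all mice and Ntsr2 AKO mouse 4 the lowest of the Ntsr2 AKO mice. Control 3, which was high in the enzymes too, had the lowest macrophage sum of all mice (36746). A link between enzymes and macrophage markers was not tested. Without Ntsr2 AKO mouse 4, 3 members were at an unadjusted p under 0.05 and the members' median was -0.17, while the genes at this p numbered 647 of 16157 (4.0%) against 1349 with all mice. Within groups, members varied like other genes: the median SD on the log2 scale was 0.27 in control against 0.23 in Ntsr2 AKO mice for members, and 0.28 and 0.25 for all genes tested.

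In 7 members the highest Ntsr2 AKO value was below the lowest control (23.3%; 8.16% of all genes tested were so placed): Mvd, Idi1, Sqle, Cyp51, Lbr, Hsd17b7 and Srebf2. Abca1 alone was placed the other way (3.33%; 6.82% of all genes).

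The first enzymes of the mevalonate branch were at near the same level in both genotypes. Hmgcs1, which makes HMG-CoA, had 13640 normalized counts in control 3, 9035 in control 4 and 5452 in control 5, against 11721, 10104 and 6242 in the Ntsr2 AKO mice. Its spread within each group was far wider than the difference of 0.05 ± 0.37 between them. Acat2, the cytosolic thiolase that joins acetyl-CoA units, was 0.20 ± 0.17 higher (limma adjusted p = 0.772), and mevalonate kinase, Mvk, differed by -0.03 ± 0.15. Pmvk, the kinase that follows, had a fold change of -0.32 ± 0.31 that rested on control 4, whose 6937 normalized counts stood above 2929 to 4365 in the other 5 mice; without that mouse the value was 0.012.

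The later enzymes of the branch had lower values in the knockouts, short of the adjusted threshold. Mvd, which decarboxylates mevalonate pyrophosphate into isopentenyl pyrophosphate, had 486, 574 and 448 normalized counts in the controls against 384, 317 and 427 in the knockouts. The groups did not overlap, and the means of 502.5 ± 64.4 and 376 ± 55.4 (SD, n = 3) differed by -0.42 ± 0.19 on the log2 scale (limma adjusted p = 0.609), the largest difference in the branch. Idi1, the isomerase that interconverts the isoprene units, had 2986, 2885 and 2633 in the controls and 2542, 1793 and 2389 in the Ntsr2 AKO mice. It too was lower in every Ntsr2 AKO mouse, by -0.35 ± 0.16 (limma adjusted p = 0.605; -0.20 without Ntsr2 AKO mouse 4). Fdps, which makes farnesyl pyrophosphate, was lower by a similar amount, -0.39 ± 0.21 (limma adjusted p = 0.652), with groups that overlapped and with 1124 of its 4208 exon bases annotated also to a gene on the same strand, Gm43738. In all, 5 of the 7 mevalonate enzymes were lower, none at an unadjusted p under 0.05, with a median of -0.32.

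**Figure D2:**
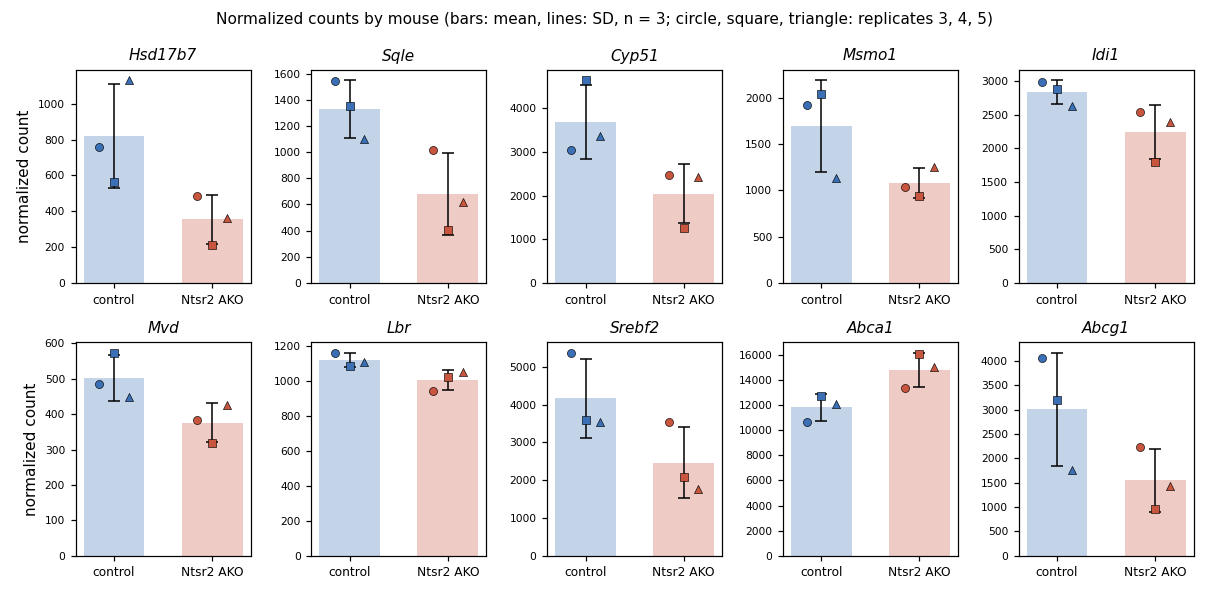
Normalized counts of 10 members (y axes, each from 0) in control and Ntsr2 AKO mice, with bars for the mean, lines for the SD (n = 3) and circles, squares and triangles for mice 3, 4 and 5. The 10 were chosen as the members at an unadjusted p under 0.05 in limma or with groups that did not overlap. Being apart was thus part of the choice. The groups were apart in all but Msmo1 and Abcg1, and Abca1 was the one that was higher in Ntsr2 AKO mice.

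Between squalene and cholesterol, 11 of 12 enzymes were lower, against 51.0% of all genes, and 4 of them (33.3%) were lower at an unadjusted p under 0.05, against 5.27% of all genes, with a median of -0.21. Fdft1, squalene synthase, opens this stretch and was close in both genotypes (-0.15 ± 0.16); its annotated exons share 774 of 4227 bases with the opposite strand of Ctsb, which had a mean of 114676 normalized counts, and the strand used in counting was not given in the sources used here. Sqle, squalene epoxidase, adds the first oxygen and is a well known point of control of the pathway. It lies at chr15:59315077-59331192 (GRCm38, plus strand) and had 1539.7, 1354 and 1098 normalized counts in controls 3, 4 and 5, against 1016, 405 and 618 in Ntsr2 AKO mice 3, 4 and 5. The Ntsr2 AKO values were all below the controls, with mouse 3 close to control 5 and mouse 4 the lowest. The difference was -1.05 ± 0.33 (limma adjusted p = 0.535; DESeq2 adjusted p = 0.181).

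Lss, lanosterol synthase, folds the epoxide into the first sterol and was lower by -0.20 ± 0.16 with groups that overlapped. Cyp51, the demethylase that starts on lanosterol (chr5:4081145-4104746, minus strand), had 3036, 4654 and 3375 normalized counts in control against 2464, 1265 and 2418 in Ntsr2 AKO mice. Ntsr2 AKO mouse 4 was again the lowest, while the other knockouts were nearer to control 3. The difference was -0.89 ± 0.30 (limma adjusted p = 0.557; DESeq2 adjusted p = 0.188) and -0.57 without Ntsr2 AKO mouse 4, and 166 of its 4415 exon bases overlap Akap9 on the opposite strand.

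The sterol C14 reductases, which act next and overlap in function, had fold changes of opposite sign. Lbr, which also anchors chromatin at the nuclear envelope, had 1161, 1083 and 1107 normalized counts in control against 939, 1024 and 1049.5 in Ntsr2 AKO mice. These groups did not overlap, yet the difference was small, -0.15 ± 0.12 (limma adjusted p = 0.746). Tm7sf2 had a fold change of 0.12 ± 0.21, the one positive value of this stretch, with 532 of 4403 exon bases shared with Vps51 on the same strand.

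The enzymes that remove the C4 methyl groups held a further pair of low members. Msmo1, the methyl sterol monooxygenase (chr8:64718139-64733792, minus strand), had 1923, 2037 and 1127 normalized counts in control against 1039, 936 and 1249.9 in Ntsr2 AKO mice. Control 5 lay among the Ntsr2 AKO mice, so the groups overlapped, and the difference was -0.62 ± 0.25 (limma adjusted p = 0.590; DESeq2 adjusted p = 0.303). Nsdhl, the dehydrogenase of the same complex, differed by -0.10 ± 0.26. Hsd17b7, the 3-ketosteroid reductase that completes each round of demethylation (chr1:169949535-169969241, minus strand), had 760.2, 563 and 1133 normalized counts in control against 486, 213.5 and 364 in Ntsr2 AKO mice. The groups did not overlap, and the means of 818.8 ± 289.3 and 354.7 ± 136.6 (SD, n = 3) differed by -1.22 ± 0.37, the largest difference among the members (limma adjusted p = 0.523; DESeq2 adjusted p = 0.0945).

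The last steps were closer to equal. Ebp, the isomerase, was nearly the same in the Ntsr2 AKO mice, at 1984, 2006 and 2028 normalized counts, and within the control range of 1773 to 2319. Sc5d, the desaturase, was lower by -0.37 ± 0.24 (limma adjusted p = 0.697; -0.12 without control 3) with overlap, and Dhcr7, the reductase that ends one route to cholesterol, by -0.21 ± 0.22 (limma adjusted p = 0.807; -0.027 without Ntsr2 AKO mouse 4).

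**Figure D3:**
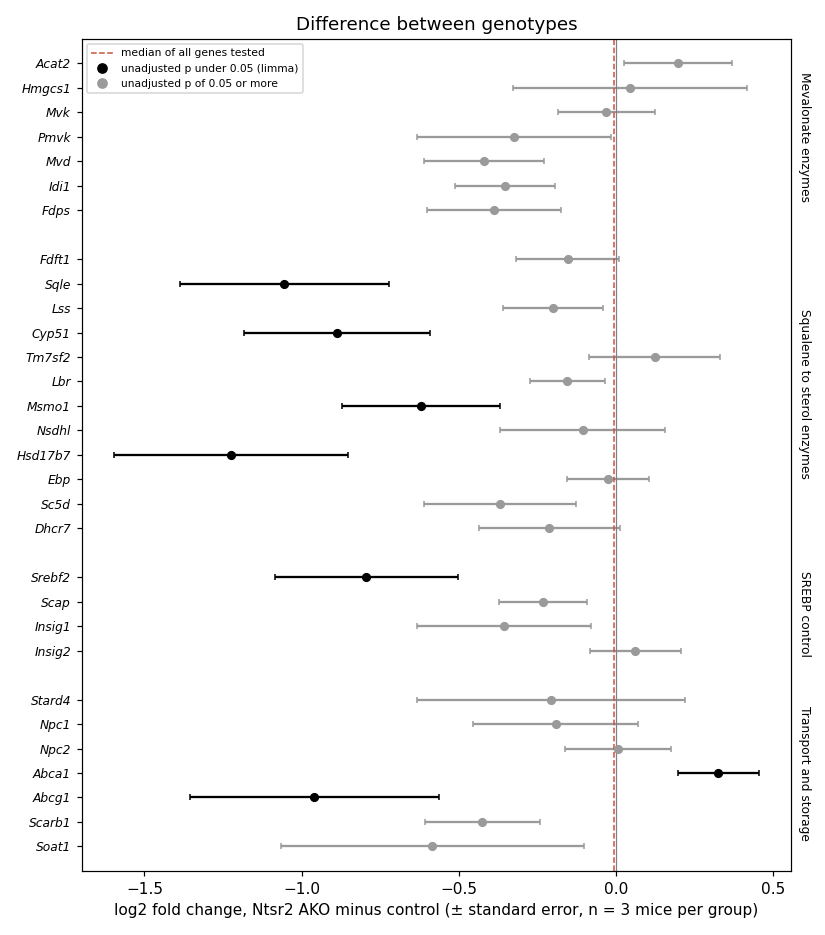
Log2 fold change of each member, Ntsr2 AKO minus control (x axis), with its standard error from limma (n = 3 mice per group); black points have an unadjusted p under 0.05, grey points do not, and the dashed line is the median of all genes tested. Of the 30 points, 24 lie below 0, from -1.22 for Hsd17b7, and Abca1 at 0.33 is the 1 black point above 0.

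Among the SREBP genes, Srebf2 itself was lower in the knockouts. It had 5376, 3582 and 3546 normalized counts in controls 3, 4 and 5 and 3533, 2093 and 1771 in Ntsr2 AKO mice 3, 4 and 5. The groups nearly touched, with Ntsr2 AKO mouse 3 just under the lowest 2 controls, and the other Ntsr2 AKO mice well below. The difference was -0.79 ± 0.29 (limma adjusted p = 0.565; DESeq2 adjusted p = 0.289) for the gene at chr15:82147181-82205379. Scap, the SREBP escort, was lower by -0.23 ± 0.14 (limma adjusted p = 0.683) with overlap. Insig1, itself a target of SREBP, had 12007, 23946 and 14722 normalized counts in control against 12229, 10553 and 15652 in Ntsr2 AKO mice. Control 4 was far above the rest, and the difference was -0.36 ± 0.28 (limma adjusted p = 0.747; -0.073 without control 4). Insig2 differed by 0.06 ± 0.14.

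Srebf1, which encodes the related factor that acts mainly on fatty acid genes, was not lower: its mean was 12878 ± 2934 normalized counts in control against 14878 ± 1511 in Ntsr2 AKO mice (0.23 ± 0.18; limma adjusted p = 0.753). The log2 ratio of Srebf2 to Srebf1 counts within a mouse was -1.59, -1.71 and -1.59 in controls and -2.22, -2.81 and -2.93 in Ntsr2 AKO mice, with no overlap. The difference of -1.02 had an exact two-sided permutation p of 0.1, the smallest that 3 against 3 mice allow (0.25 after adjustment over the 5 ratios computed, which were chosen after the values were seen). The ratio of Sqle to Fdft1, the enzyme before it, also did not overlap and differed by -0.90 (exact permutation p = 0.1, adjusted 0.25). Cyp51 to Lss, Abca1 to Abcg1 and Insig1 to Insig2 overlapped, with differences of -0.69, 1.29 and -0.42 and exact permutation p of 0.2, 0.2 and 0.3.

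The sterol exporters of the ABC family had opposite signs. Abca1, which loads cholesterol onto lipid-poor apolipoproteins (chr4:53030787-53159895, minus strand), had 10670.4, 12747 and 12048 normalized counts in control against 13383, 16058 and 15035 in Ntsr2 AKO mice. All knockouts lay above all controls, and the means of 11822 ± 1057 and 14825 ± 1349 (SD, n = 3) differed by 0.33 ± 0.13 (limma adjusted p = 0.583; DESeq2 adjusted p = 0.319). Abcg1, which passes sterol to mature lipoprotein particles (chr17:31057675-31117988, plus strand), had 4065, 3201 and 1761 in control against 2238, 966 and 1440.2 in Ntsr2 AKO mice. Control 5 was below Ntsr2 AKO mouse 3, and the difference was -0.96 ± 0.40 (limma adjusted p = 0.593; DESeq2 adjusted p = 0.277). Both genes are known targets of the sterol sensing LXR receptors. Abcg1 is abundant in macrophages too. The mice with the least Abcg1 in each group, control 5 and Ntsr2 AKO mouse 4, had the middle and the lowest macrophage sums of their groups. Control 3, with the most Abcg1 of all mice, had the lowest macrophage sum of all mice (36746). The part of these cells in the Abcg1 difference was not tested.

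Genes of uptake, lysosomal export and storage overlapped between the genotypes. Scarb1, which encodes the HDL receptor SR-BI, was lower by -0.43 ± 0.18 (limma adjusted p = 0.600), with control 3 at 4128 below Ntsr2 AKO mouse 3 at 4341. Npc1 and Npc2 move cholesterol out of lysosomes: Npc2 differed by 0.01 ± 0.17 and Npc1 by -0.19 ± 0.26, the latter resting on control 5 with 3344 normalized counts against 1607 to 2036 in the other mice. Stard4, a soluble sterol carrier, ranged from 291 to 918 within the controls, and its difference was -0.21 ± 0.43. Soat1, which esterifies cholesterol for storage, had 565, 1392 and 855 normalized counts in control against 668, 309.9 and 963 in Ntsr2 AKO mice. The highest Soat1 value was in control 4 and the lowest in Ntsr2 AKO mouse 4, and the difference was -0.58 ± 0.48 (limma adjusted p = 0.761; -0.13 without Ntsr2 AKO mouse 4). Soat1 is also high in macrophages, whose marker sum was highest in control 4 and lowest among Ntsr2 AKO mice in mouse 4, and the part of these cells was not tested.

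Levels can be compared between members once counts are divided by exon length.

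**Figure D4:**
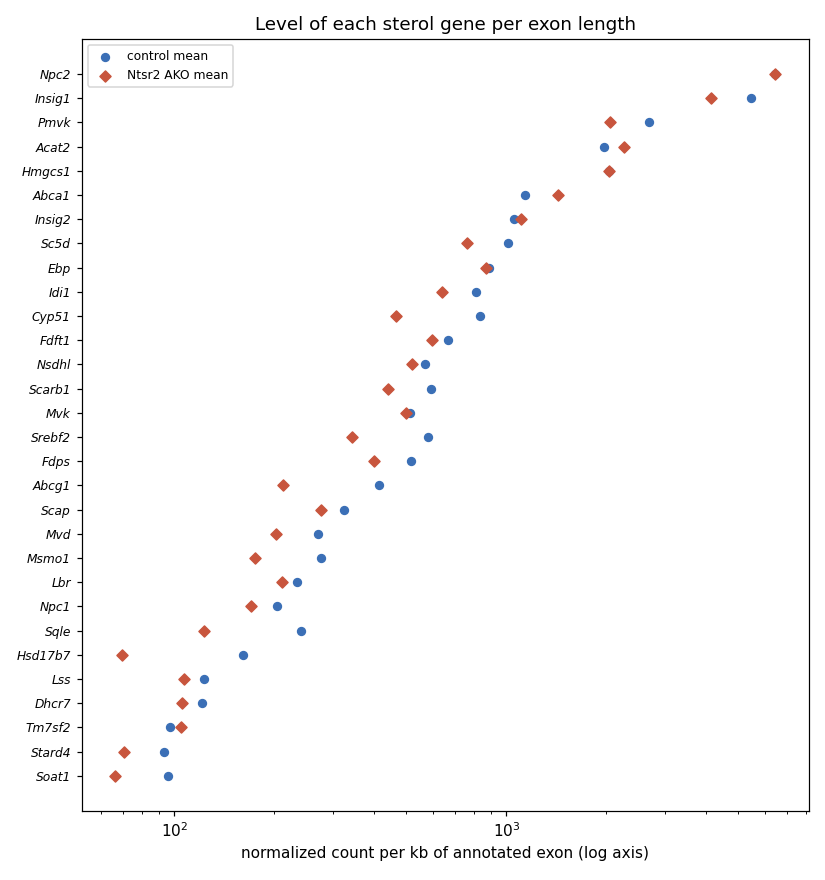
Mean normalized count per kb of annotated exon (x axis, log scale) of each member in control (blue circles) and Ntsr2 AKO mice (red diamonds), in order of the mean over the 6 mice. Npc2 stood at the top and Soat1 at the bottom, and for most members the order of genes spanned far more than the gap between genotypes.

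The most abundant member was Npc2, with a mean of 6464 normalized counts per kb over the 6 mice, followed by Insig1 with 4802. The early enzymes Pmvk, Acat2 and Hmgcs1 came next, at 2375, 2119 and 2039 per kb, with Abca1 at 1286. The enzymes that differed most between genotypes were not the abundant ones: Sqle had 181 and Hsd17b7 115 per kb, among the 7 lowest members with Lss at 115, Dhcr7 at 113, Tm7sf2 at 101, Stard4 at 81.8 and Soat1 at 80.9. Cyp51, at 650 per kb, was the exception. Exon length here is that of all annotated transcripts of a gene together, so genes with long alternative exons read low on this scale.

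The lists of genes around the pathway had medians nearer to 0. Of 14 genes of the isoprenoid branches that use farnesyl pyrophosphate for dolichol, ubiquinone and prenylation, 8 were lower and 6 higher, with a median of -0.02. Nus1, a subunit of the dolichol synthase, was the one at an unadjusted p under 0.05, at 5333 ± 344.6 normalized counts in control against 4363 ± 279.6 in Ntsr2 AKO mice (-0.29 ± 0.11; limma adjusted p = 0.569). Of 20 genes of SREBP processing and sterol sensing, 12 were lower and 8 higher (median -0.02), and Pgrmc1, a sterol binding membrane protein, was higher by 0.33 ± 0.12 (limma adjusted p = 0.565) with groups that did not overlap. Of 19 sterol carriers, 11 were lower and 8 higher (median -0.02) and none reached that p, the closest being Stard5 at 0.36 ± 0.16 (limma adjusted p = 0.600).

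**Figure D5:**
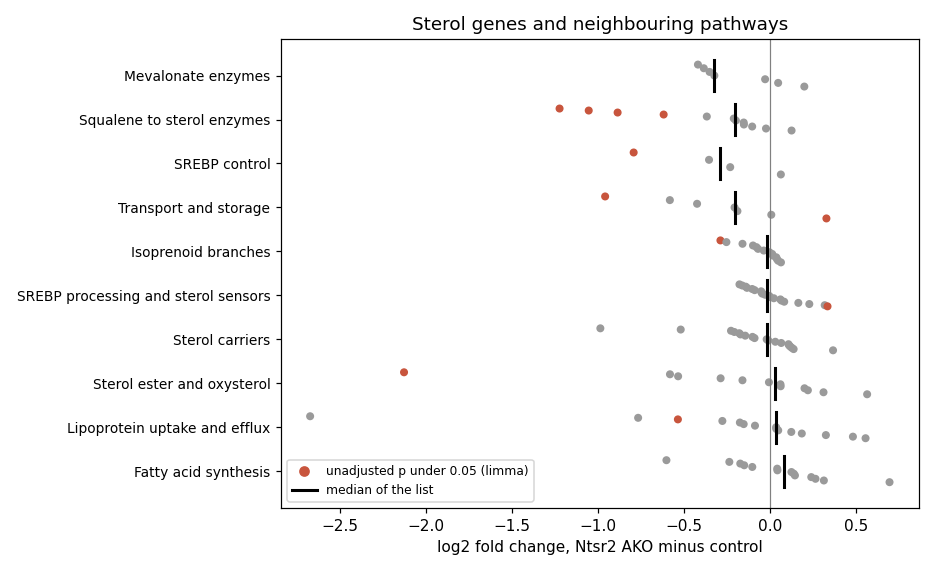
Log2 fold changes, Ntsr2 AKO minus control (x axis), of the members by role and of 6 neighbouring lists, with 1 point per gene, red at an unadjusted p under 0.05 and a black bar at each median. The 4 member roles have medians from -0.32 to -0.21, and the 6 other lists from -0.02 to 0.08.

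Among 12 genes of sterol esters and oxysterols, 6 were lower and 6 higher, with a median of 0.03. Ch25h, which makes the signalling oxysterol 25-hydroxycholesterol, had 185, 134 and 83.5 normalized counts in control against 49.5, 23.8 and 19.2 in Ntsr2 AKO mice. All Ntsr2 AKO values were below all controls, with a difference of -2.13 ± 0.49 (limma adjusted p = 0.520), and Ch25h was the 1 gene of these 6 lists with a DESeq2 adjusted p under 0.05 (0.0169). Its adjusted p ranged from 0.0169 to 1 over the alternatives tried. Among 15 genes of lipoprotein uptake and efflux, 7 were lower and 8 higher (median 0.03), and Pltp, the phospholipid transfer protein, was lower, at 9389 ± 1957 in control against 6435 ± 1036 in Ntsr2 AKO mice (-0.54 ± 0.19; limma adjusted p = 0.565). Among 14 fatty acid genes, most of them targets of SREBP1, 5 were lower and 9 higher (median 0.08) and none was at an unadjusted p under 0.05. The extremes of that list were Elovl6, an elongase, at 0.69 ± 0.41 and Acsl3, an acyl-CoA synthetase, at -0.60 ± 0.31.

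The muscle transcripts bear on 3 of the 6 mice, and the counts of members were also taken without them. With control 5 and Ntsr2 AKO mice 4 and 5 left out, 25 of 30 members were lower and the median was -0.21, but 2 control mice stood against 1 Ntsr2 AKO mouse, whose spread was taken to be that of the controls. In that comparison 1 member was at an unadjusted p under 0.05, beside 309 of all genes (1.91%). Several of the larger differences were smaller there: Hsd17b7 was at -0.43, Sqle at -0.51, Cyp51 at -0.61, Srebf2 at -0.31 and Abca1 at 0.20. Msmo1 was further below the controls than with all mice, at -0.93, and Abcg1 moved by less than 1.5 times. With the muscle level as a covariate over all 6 mice, 6 lower members and no higher one were at that p (8.44% of all genes were, in either direction), and the median was -0.23. Over the 18 alternatives, Hsd17b7 kept an unadjusted p under 0.05 in 17, Sqle and Cyp51 in 16 each, Srebf2 in 12, Abca1 in 11, Msmo1 in 10 and Abcg1 in 8.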

How the data were processed

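RNA of white adipose tissue from 3 control and 3 Ntsr2 AKO mice was sequenced. Per the study's methods, the authors used Trimmomatic to trim reads, HISAT2 to align them, StringTie to obtain counts and DESeq2 to compare the groups. The submitters' processing notes name mm10. The deposited signal is a table of normalized counts, each gene's reads divided by a size factor per mouse. The division was read from the values: 100% of values in every column were whole multiples (within 0.01) of 1 step, and whole reads were recovered from it. No 2 columns held identical values.

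Values were tested as log2(normalized count + 1) with limma 3.58.1 (mean-variance trend, two-sided) in R 4.3.3 over genes with a mean of at least 10, with Benjamini-Hochberg adjustment over 16157 genes and a threshold of 0.05. All 30 members passed this filter. edgeR 4.0.16 (quasi-likelihood, TMM) and DESeq2 1.42.0 served as alternatives on the recovered reads, beside other pseudocounts, filters and scalings, a replicate block, a muscle covariate and leaving out each mouse. Leaving out the 3 mice with muscle transcripts was added after the data were seen. Gene positions and exon lengths came from GENCODE annotation of GRCm38, the assembly of mm10, and promoters from RefSeq. A motif was searched on both strands. The members and lists were chosen with earlier results of these data known. All members were named; values in every mouse were given for members at an unadjusted p under 0.05, with groups that did not overlap, or with the largest change of a role, and from each other list at most the 4 genes with the smallest p were named. Srebf1 was named for its ratio to Srebf2, after its values were seen. Depth was high and mice were few, and the share of each in the precision was not tested.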

Additional observations from a re-analysis of the deposited data

How the results depend on the processing

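With 3 mice per group, single fold changes had standard errors of up to 0.48 among the members, and no alternative brought a member past the adjusted threshold. The number of genes past it was 1 in limma, 220 in DESeq2 and 0 in edgeR, without the filter, with scaling to the total of recovered reads, without the trend, with the muscle covariate, without the 3 mice with muscle transcripts and, at lowest and highest, 0 and 0 when each mouse was left out. Members at an unadjusted p under 0.05 numbered 7 in limma, beside 1349 of all 16157 genes tested. They numbered 4 with scaling to the total (1330 of all genes) and 3 without the trend (1325 of all genes). When each mouse was left out, the members at this p ranged from 3 to 8. There were 3 without control 3 (1361 of all genes) and 3 without Ntsr2 AKO mouse 4 (647). Without control 4 there were 4 (1393), and without Ntsr2 AKO mouse 3 there were 8 (1696). The members' median ranged from -0.37 (without control 5) to -0.13 (scaling to the total, which moved the median of all genes to 0.09; quantile normalization moved it to 0.05). The cause of these shifts was not tested.

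Replicate numbers are shared between the groups. The deviations of same-numbered mice correlated at 0.45, -0.24 and 0.41, and those of other pairs at -0.52 to 0.26. With 3 mice per group these values cannot decide whether the numbers pair the mice. With the number as a replicate block, 0 genes passed the adjusted threshold. At an unadjusted p under 0.05 in this fit were 5 lower and 1 higher member, beside 1303 of all 16157 genes in either direction.

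Values that changed sign when mice were left out ranged from -0.30 to 0.37 for Hmgcs1, -0.16 to 0.037 for Mvk, -0.55 to 0.012 for Pmvk, -0.013 to 0.28 for Tm7sf2, -0.30 to 0.14 for Nsdhl, -0.13 to 0.068 for Ebp, -0.024 to 0.17 for Insig2, -0.53 to 0.30 for Stard4, -0.42 to 0.11 for Npc1 and -0.077 to 0.14 for Npc2. Of members that kept their sign, leaving out 1 mouse at a time also gave wide ranges for Acat2 (0.086 to 0.32), Fdps (-0.55 to -0.21), Fdft1 (-0.23 to -0.014), Lss (-0.28 to -0.086), Scap (-0.34 to -0.14) and Scarb1 (-0.56 to -0.28). Quantile normalization gave 0.032 for Mvk and 0.059 for Ebp, and scaling to the total gave 0.067 for Mvk and 0.072 for Ebp. Without the 3 mice with muscle transcripts, Tm7sf2 was at -0.050, Npc1 at 0.075, Npc2 at -0.17, and of the other lists Sult2b1 at -0.64 and Lrp1 at 0.19. None of these genes was at an unadjusted p under 0.05 in limma. In DESeq2, Ntsr2 (-4.72) and Ch25h (-2.11) were past the adjusted threshold.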
